A study of Mus musculus with 12 samples.

Results

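The genes described here are 10 members of transforming growth factor beta (TGF-beta) signalling and of its fibrosis response: the ligands *Tgfb1*, *Tgfb2* and *Tgfb3*, the receptors *Tgfbr1*, *Tgfbr2* and *Tgfbr3*, the feedback inhibitor *Smad7*, and the target genes *Ctgf*, *Acta2* and *Fn1*. They were chosen by symbol from the 24421 gene symbols of the count and FPKM matrices (FPKM, the read count scaled by transcript length and library depth), and all 10 were found. Kidneys of male C57BL/6 mice at 6 weeks old gave 1 RNA-seq library each, with 3 libraries in each of 4 groups. Baseline kidneys came from unoperated WT or *Tet2*-/- mice, and IR kidneys from mice of either genotype at 24 h after the right renal pedicle was clamped for 60 min. The mice labelled *Tet2*-/- came from *Tet2*+/- breeding pairs, a germline line in which the deletion is not limited to a cell type, and their *Tet2* transcript is given with the results. The left kidney was removed at the operation in IR mice and no sham-operated library was among the 12, so surgery, nephrectomy and ischemia-reperfusion cannot be told apart in these data. Total counts ran from 51007366 to 107969888 per library.

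TGF-beta ligands are secreted in a latent complex and, once activated, bring together a pair of type II and type I receptors on the cell surface. The type I receptor phosphorylates SMAD2 and SMAD3, which bind SMAD4 and enter the nucleus, where they raise the transcription of target genes, among them inhibitors of the pathway. In the kidney this pathway is known for driving matrix deposition by fibroblasts and pericytes after injury, and connective tissue growth factor (CTGF), smooth muscle actin and fibronectin are its usual readouts.

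The promoters of the members that moved in the libraries labelled *Tet2*-/- and had an entry, *Tgfb1*, *Tgfbr1* and *Tgfbr2*, are shown together with that of *Acta2*, the myofibroblast readout. Each runs from 250 bases before to 50 after the gene's start (RefSeq, build GRCm38.p6), 5′ to 3′ on the gene's strand, and capitals mark matches to any of 7 motifs searched on both strands. *Tgfb2* and a second start of *Tgfbr1* also had an entry, and *Tgfb3*, *Tgfbr3*, *Ctgf* and *Fn1* had none, and that of *Smad7* was not used here.
Tgfb1 (chr7:25686752-25687051, plus strand): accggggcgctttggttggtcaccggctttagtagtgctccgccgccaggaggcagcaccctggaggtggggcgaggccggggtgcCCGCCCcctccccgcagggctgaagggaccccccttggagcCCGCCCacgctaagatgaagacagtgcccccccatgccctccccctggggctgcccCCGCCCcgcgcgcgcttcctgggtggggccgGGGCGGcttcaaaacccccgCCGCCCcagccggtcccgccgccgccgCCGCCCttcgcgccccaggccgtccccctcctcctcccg
Tgfbr1 (chr4:47352972-47353271, plus strand): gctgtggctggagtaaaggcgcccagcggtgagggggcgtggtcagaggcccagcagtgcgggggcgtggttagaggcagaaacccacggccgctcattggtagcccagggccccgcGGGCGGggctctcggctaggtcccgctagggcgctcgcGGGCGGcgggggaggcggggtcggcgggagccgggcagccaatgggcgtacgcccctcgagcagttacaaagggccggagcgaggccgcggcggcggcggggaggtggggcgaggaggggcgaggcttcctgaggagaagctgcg
Tgfbr2 (chr9:116175314-116175613, minus strand): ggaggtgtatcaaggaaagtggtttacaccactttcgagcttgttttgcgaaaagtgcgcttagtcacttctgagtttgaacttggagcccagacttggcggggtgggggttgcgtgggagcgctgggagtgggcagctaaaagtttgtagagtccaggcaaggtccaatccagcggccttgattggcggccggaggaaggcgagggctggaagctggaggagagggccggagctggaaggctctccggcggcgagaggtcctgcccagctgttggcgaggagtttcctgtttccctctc
Acta2 (chr19:34255324-34255623, minus strand): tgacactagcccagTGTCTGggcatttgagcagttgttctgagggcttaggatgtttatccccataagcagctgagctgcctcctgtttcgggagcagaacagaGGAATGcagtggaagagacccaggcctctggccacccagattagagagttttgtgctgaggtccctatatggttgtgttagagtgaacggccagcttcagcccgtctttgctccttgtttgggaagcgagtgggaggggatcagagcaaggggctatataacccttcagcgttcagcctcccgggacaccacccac
The motifs were the SMAD palindrome GTCTAGAC, the SMAD element CAGACA, the TEAD motif GGAATG, the GC box GGGCGG, the E-box CACGTG, the TATA box TATAAA and the CArG box, which can hold a TATA box, while no other motif holds another. The *Tgfb1* window held 6 GC boxes and the *Tgfbr1* window held 2, a motif present in 35.7% of the 32851 promoters of the same length. In *Acta2*, the SMAD element lay at −236 on the other strand and the TEAD motif at −146 from the start, and these letters occur in 21.0% and 14.7% of all promoters. The *Tgfbr2* window held none of the 7. No match to the SMAD palindrome (0.213% of all promoters), the CArG box (1.63%), the E-box (7.15%) or the TATA box (13.6%) was present in these 4 windows. The CArG box was searched only in its strict form, CC, 6 bases of A or T, and GG. The *Acta2* window holds ccctatatgg and ccttgtttgg, each a base away from that form, and these were not counted.

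*Tet2* itself was read first as a check of the labels. Its FPKM was 9.15, 6.25 and 7.33 in WT baseline libraries and 9.24, 16.6 and 10.3 in the baseline libraries labelled *Tet2*-/-. The transcript was therefore not lower in the group labelled as knockout, and each direction between genotypes below is given by the labels alone. After IR, *Tet2* was at 9.34, 3.97 and 3.85 FPKM in WT and 2.64, 3.20 and 1.76 FPKM in the libraries labelled *Tet2*-/-.

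At baseline, the order of the members by mean FPKM was *Ctgf*, *Acta2*, *Tgfbr2*, *Tgfbr1*, *Tgfbr3*, *Smad7*, *Fn1*, *Tgfb1*, *Tgfb3* and *Tgfb2* in WT kidneys, from 28.2 to 0.332 FPKM. Neighbours in that order overlapped between libraries except *Tgfbr2* and *Tgfbr1*, and *Tgfb1* and *Tgfb3*. In the IR libraries labelled *Tet2*-/- *Ctgf* stood at 114 FPKM, with every library above every library of the next member, *Tgfbr2*, at 26.3 FPKM. *Tgfb1* moved from the eighth to the fifth place there, although its libraries overlapped those of *Fn1*, the next in the order. For *Tgfbr1*, *Tgfbr2* and *Fn1*, which had several transcripts in the files, the transcript with the next highest total gave group means within 3.58% of those used.

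**Figure D1:**
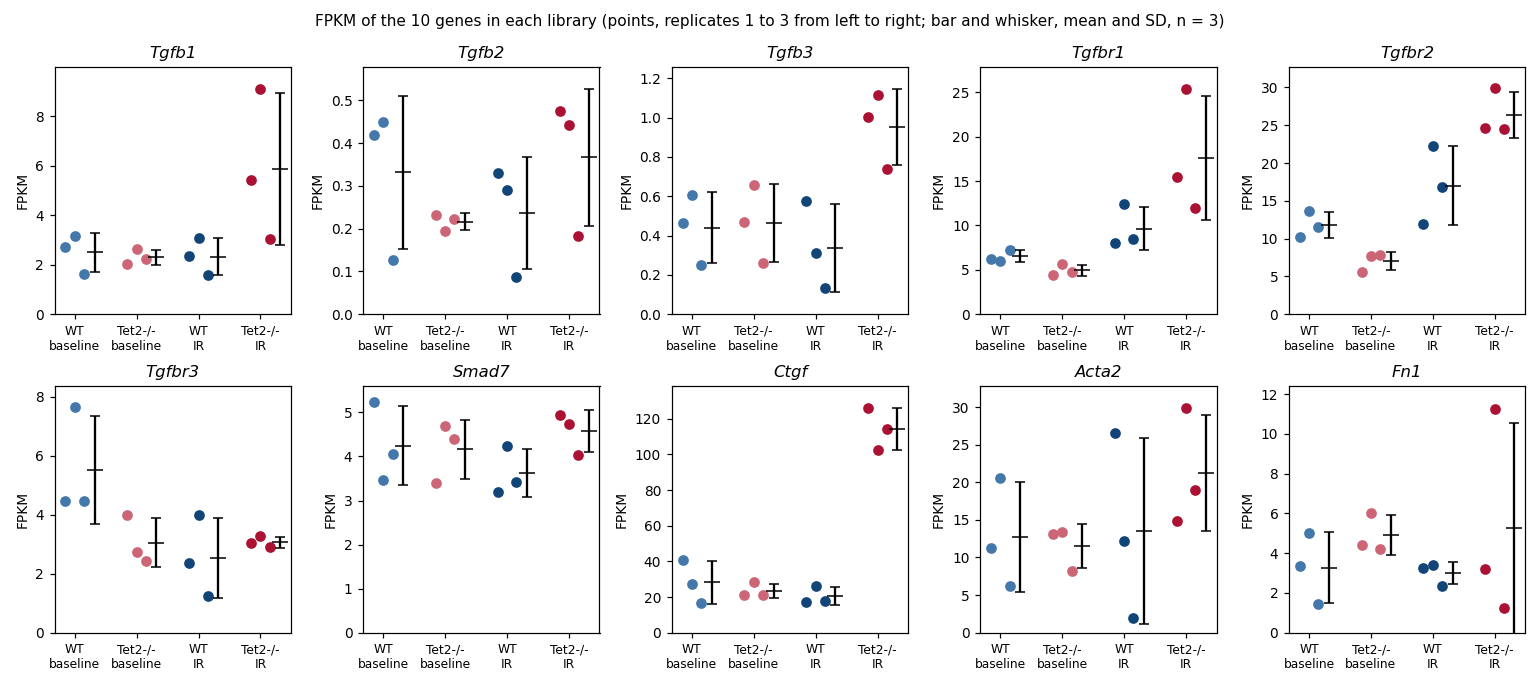
FPKM (vertical axes, each from 0) of the 10 genes in each of the 12 libraries, with WT and *Tet2*-/- baseline and IR groups along the horizontal axes; points are libraries, replicates 1 to 3 from left to right, and the bar and whiskers give the mean and SD (n = 3). The 3 IR libraries labelled *Tet2*-/- lie between 102 and 126 FPKM for *Ctgf*, above the 9 others, which lie between 16.6 and 40.9 FPKM.

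IR against baseline was tested within each genotype, and the genotypes were compared at baseline and after IR, each over 6 libraries with edgeR's quasi-likelihood test. A gene passed at an adjusted p under 0.05 over all genes tested, and was differentially expressed if its log2 fold change was also over 1 or under −1. In WT kidneys none of the 10 members passed, and 2 of the 10 had an unadjusted p under 0.05, as did 3653 of the 16043 genes tested, while 3.02% of all 16043 genes tested passed (1.89% as higher and 1.12% as lower) and 1.47% were differentially expressed as higher and 0.879% as lower. The genes that passed in WT split into 304 higher and 180 lower, and into 658 and 828 with the replicate number as a block. With that block, and with DESeq2, 1 member, *Tgfbr3*, passed in WT as lower. In the libraries labelled *Tet2*-/- 4 members, *Tgfb1*, *Tgfbr1*, *Tgfbr2* and *Ctgf*, rose after IR and none fell. That comparison moved a large part of the transcriptome, since 43.2% of the 16375 genes tested passed (22.9% as higher and 20.3% as lower), and 12.8% were differentially expressed as higher and 11.6% as lower. The split of differentially expressed genes was 2088 higher to 1896 lower, and 2867 to 1404 where libraries were scaled by their totals alone. At baseline no member differed between genotypes, 2 had an unadjusted p under 0.05, and 0.0124% of 16108 genes passed as higher and none as lower (1893 had an unadjusted p under 0.05, and DESeq2 called 320 genes differentially expressed, 22 higher and 298 lower, with no member among them). After IR only *Ctgf* of the 10 was higher by label, where 9.67% of 16210 genes passed (3.5% as higher and 6.17% as lower) and 2.3% were differentially expressed as higher and 3.86% as lower. The genes that passed split into 568 higher and 1000 lower, and into 804 and 791 with library totals alone. All 10 members passed edgeR's filter on low counts in each comparison. The difference of the 2 IR effects was tested as the interaction term over the 12 libraries, and it passed for *Tgfbr2* and *Ctgf*, beside 9.19% of 16755 genes. Of these genes 3.81% passed as higher and 5.38% as lower (638 to 901 genes, and 1137 to 703 with library totals alone). The 5 comparisons share libraries, so their values are given side by side for each member and are not independent.

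**Figure D2:**
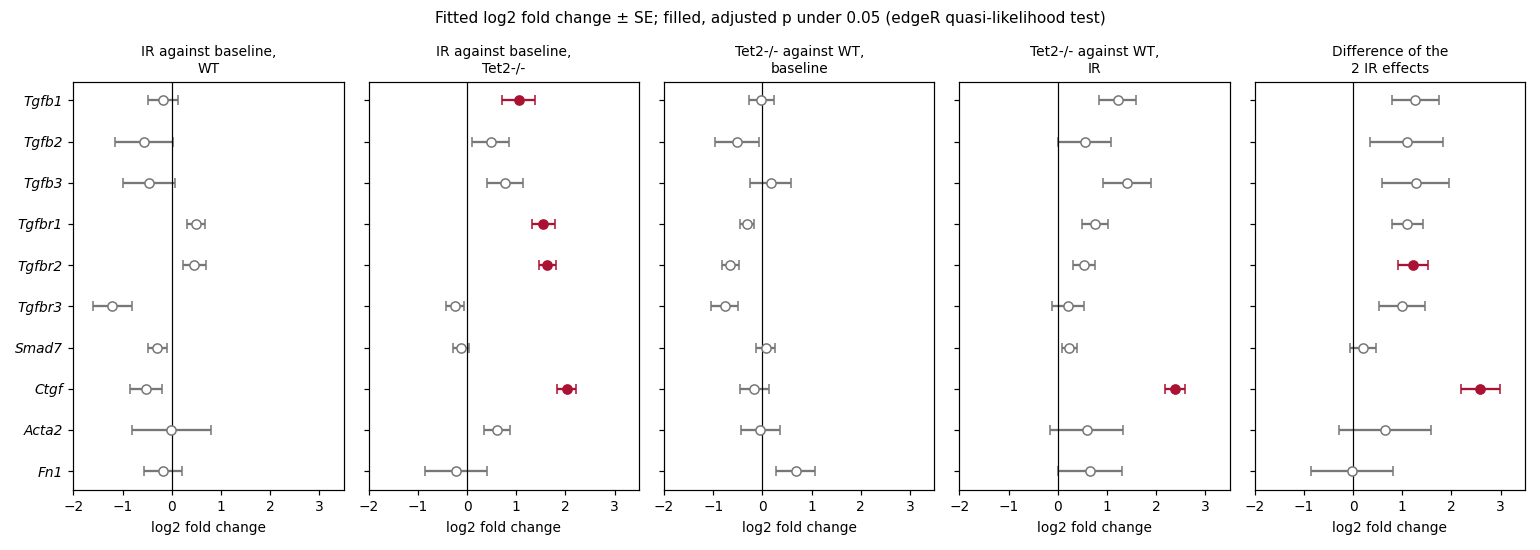
Log2 fold change fitted by edgeR (horizontal axes) of the 10 genes in the 4 comparisons of 2 groups and for the difference of the 2 IR effects; points are estimates, whiskers the SE, and filled points have an adjusted p under 0.05. *Tgfb1*, *Tgfbr1*, *Tgfbr2* and *Ctgf* are filled in the IR effect of the libraries labelled *Tet2*-/-, between 1.06 and 2.02, and no point is filled in the WT IR effect or at baseline.

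*Tgfb1* (NM_011577, mm9 chromosome 7, 26472021 to 26490096, plus strand) encodes the main TGF-beta ligand of the injured kidney. Its FPKM was 2.71, 3.14 and 1.63 in WT baseline libraries and 2.34, 3.06 and 1.58 in WT IR libraries. The baseline libraries labelled *Tet2*-/- had 2.03, 2.63 and 2.25 FPKM, and the IR libraries of that label had 5.43, 9.11 and 3.03. All 3 of these IR libraries stood above their baseline libraries, as for 40.4% of the 16375 genes tested, while WT IR replicate 2, at 3.06, lay just above the lowest of them. Relative to baseline, *Tgfb1* rose 2.08-fold in the libraries labelled *Tet2*-/- (log2 fold change 1.06, standard error [SE] 0.34, adjusted p = 0.0376). The call was lost on leaving out any of the 3 baseline libraries or IR replicate 1 or 2 (adjusted p from 0.0709 to 0.116), and was kept without IR replicate 3 (adjusted p = 0.00416, the lowest of 15 alternatives). With the replicate number as a block the log2 fold change was 0.96, under the fold limit (adjusted p = 0.0227). In WT kidneys the log2 fold change was −0.17 (SE 0.31, adjusted p = 0.780). After IR the genotypes differed by 1.22 on the log2 scale (SE 0.38, adjusted p = 0.0841) and the 2 IR effects by 1.26 (SE 0.48, adjusted p = 0.119), neither of which passed. The former passed with DESeq2 (1.21, adjusted p = 0.0136), with all 12 libraries in a fit (0.0313) and with the replicate number as a block (0.0325), in a range up to 0.213 over 15 alternatives. The latter passed with the replicate number as a block (adjusted p = 0.0447) and without IR replicate 3 labelled *Tet2*-/- (adjusted p = 0.0432), in a range up to 0.284 over 21 alternatives. At baseline the difference was −0.02 (SE 0.26, adjusted p = 0.976).

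Since kidney RNA was sequenced without separating cells, fewer cells of a type and less RNA per cell cannot be told apart, here and for each gene that follows. Markers of blood cell types differed between the groups as well. The FPKM of 7 neutrophil genes such as *S100a8* and *S100a9* summed to 0.547 to 2.75 in the 6 baseline libraries, 3.97 to 9.05 in WT IR libraries and 73.4 to 129 in the IR libraries labelled *Tet2*-/-, where 5 of 6 tested rose. The 7 macrophage genes summed to 94.6, 204 and 57.4 FPKM in the last group, the same order of libraries as for *Tgfb1*, against 30.1 to 58.1 in the 9 other libraries, so that IR replicate 3 lay within their range. In that group 3 of 7 rose and 1 fell with IR. *Lyz2* alone was at 13.1, 120 and 5.36 FPKM there, most of the sum of IR replicate 2. *Csf1r* was at 30.9, 23.0 and 18.05 FPKM in the baseline libraries of that label and 4.44, 6.93 and 2.21 after IR. Markers of platelets, a known store of this ligand, summed to 4.92, 12.1 and 9.96 FPKM there and to 2.45 to 5.58 elsewhere, with 2 of 5 higher and 1 lower. Their part in the result was not tested.

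*Tgfb2* (NM_009367, chromosome 1, 188447065 to 188529871, minus strand) and *Tgfb3* (NM_009368, chromosome 12, 87397693 to 87419991, minus strand) encode the other two ligands, and both were low. *Tgfb2* was at 0.419, 0.45 and 0.126 FPKM in WT baseline libraries and 0.331, 0.291 and 0.088 in WT IR libraries. In the libraries labelled *Tet2*-/- it was at 0.233, 0.194 and 0.222 FPKM at baseline and 0.475, 0.443 and 0.182 after IR, so the groups overlapped. No test of *Tgfb2* passed, with log2 fold changes after IR of −0.57 (SE 0.59) in WT and 0.48 (SE 0.38) in the libraries labelled *Tet2*-/-. The FPKM of *Tgfb3* was 0.463, 0.606 and 0.248 in WT baseline, 0.576, 0.309 and 0.132 in WT IR and 0.468, 0.658 and 0.261 in the baseline libraries labelled *Tet2*-/-. It reached 1.004, 1.11 and 0.74 in the IR libraries of that label, each above all 9 others. The fitted change did not pass, either against baseline (log2 fold change 0.77, SE 0.36, adjusted p = 0.117) or against WT IR (1.41, SE 0.49, adjusted p = 0.111). DESeq2 called the latter (1.40, adjusted p = 0.0308), the lowest of 14 alternatives, which reached 0.224. Of all genes tested in each comparison, 40.4% and 22% had every library above the other group in these comparisons. The IR change of *Tgfb3* passed under 2 of 14 alternatives, in a range up to 0.304. The lowest was limma on the log2(FPKM + 1) scale (0.42, adjusted p = 0.0328).

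*Tgfb1* made up most of the ligand transcript in each group. Its share of the summed FPKM of the 3 ligands was 77.2% ± 3.59 (SD, n = 3) in WT baseline and 77.4% ± 4.30 in baseline libraries labelled *Tet2*-/-. After IR it was 81.2% ± 8.15 in WT and 80.2% ± 4.60 in the libraries labelled *Tet2*-/-, differences within the spread of the libraries.

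The signalling receptors rose together with IR in the libraries labelled *Tet2*-/-. *Tgfbr1* (NM_009370, chromosome 4, 47366094 to 47427796, plus strand) encodes the type I receptor kinase. Its FPKM was 6.27, 6.04 and 7.28 in WT baseline and 7.97, 12.4 and 8.47 in WT IR libraries, and it was 4.39, 5.64 and 4.796 in baseline and 15.4, 25.4 and 11.9 in IR libraries labelled *Tet2*-/-. IR libraries stood above baseline libraries in both genotypes, which 18.9% of all genes did in WT and 40.4% in the libraries labelled *Tet2*-/-. In the latter *Tgfbr1* rose 2.93-fold (log2 fold change 1.55, SE 0.24, adjusted p = 0.00195) and passed under each of 15 alternatives. The WT log2 fold change of 0.49 (SE 0.18) had an adjusted p of 0.177. The difference of these effects was 1.10 on the log2 scale (SE 0.32, adjusted p = 0.0516), and 1.08 with the replicate number as a block within each genotype (adjusted p = 0.0310, range over 21 alternatives 0.0165 to 0.118). It passed under 7 of these alternatives, among them those without WT IR replicate 2 (1.29, adjusted p = 0.0271) or IR replicate 3 labelled *Tet2*-/- (1.28, adjusted p = 0.0262). Between genotypes after IR the log2 difference was 0.76 (SE 0.26, adjusted p = 0.109), and WT IR replicate 2 lay above IR replicate 3 labelled *Tet2*-/-. That difference passed with DESeq2 (0.75, adjusted p = 0.0434), with all 12 libraries in a fit (0.0368) and with the replicate number as a block (0.0488), in a range up to 0.276 over 15 alternatives.

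*Tgfbr2* (NM_009371, chromosome 9, 115996813 to 116084481, minus strand) encodes the type II receptor, which binds the ligand and activates the type I receptor. It was at 10.3, 13.7 and 11.5 FPKM in WT baseline and 5.62, 7.65 and 7.88 in the baseline libraries labelled *Tet2*-/-, each of which was lower than every WT library, as for 16.5% of the 16108 genes tested at baseline. After IR it was at 11.9, 22.3 and 16.8 FPKM in WT and at 24.6, 29.9 and 24.6 in the libraries labelled *Tet2*-/-, so the order of the genotypes was the opposite. The rise in the libraries labelled *Tet2*-/- was 3.11-fold (log2 fold change 1.64, SE 0.17, adjusted p = 0.000403) and held under each of 15 alternatives. In WT the log2 fold change was 0.46 (SE 0.24, adjusted p = 0.295). The IR effects differed by 1.21 on the log2 scale (SE 0.30, adjusted p = 0.0316). This difference missed the threshold (adjusted p from 0.0534 to 0.0717) on leaving out WT baseline replicate 2 or 3, WT IR replicate 3, any of the baseline libraries labelled *Tet2*-/- or IR replicate 1 or 2 of that label, in a range of 0.00510 to 0.0717 over 21 alternatives. Neither genotype difference passed on its own, at −0.65 (SE 0.18, adjusted p = 0.265) at baseline and 0.53 (SE 0.22, adjusted p = 0.169) after IR. DESeq2 called the former (−0.65, adjusted p = 0.0425), the lowest of 16 alternatives, which reached 0.637. The ratio of *Tgfbr2* to *Tgfbr1* FPKM stayed between 1.43 ± 0.192 and 1.83 ± 0.381 (SD, n = 3) over the 4 groups.

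*Tgfbr3* (NM_011578, chromosome 5, 107535589 to 107718614, minus strand) encodes betaglycan, a co-receptor that presents ligand, TGF-beta2 above all, to the type II receptor. Unlike the signalling receptors, it was lower after IR in WT libraries, at 2.38, 3.98 and 1.26 FPKM against 4.47, 7.65 and 4.48 at baseline, with no overlap, as for 10.4% of all genes. The log2 fold change was −1.21 (SE 0.39, adjusted p = 0.139). With the replicate number as a block it was −1.29 and passed (adjusted p = 0.0149, the lowest of 16 alternatives, which reached 0.522), and with DESeq2 it was −1.20 (adjusted p = 0.0221). In the libraries labelled *Tet2*-/- the gene was at 4.004, 2.75 and 2.42 FPKM at baseline and 3.03, 3.27 and 2.90 after IR (log2 fold change −0.25, SE 0.18, adjusted p = 0.308). All baseline libraries of this label were below the WT baseline libraries, as for 16.5% of all genes, and the difference of −0.77 on the log2 scale did not pass (SE 0.27, adjusted p = 0.348). The IR effects differed by 0.997 on the log2 scale (SE 0.47, adjusted p = 0.195), which passed only with the block within each genotype (1.11, adjusted p = 0.0372) and without WT IR replicate 2 (1.45, adjusted p = 0.0391) among 21 alternatives, the highest at 0.402. Endothelial markers summed to 37.4 to 94.3 FPKM in WT baseline, 24.04 to 40.5 in baseline libraries labelled *Tet2*-/-, 5.53 to 43.9 in WT IR and 32.1 to 66.2 in IR libraries labelled *Tet2*-/-, with none of the 6 passing in any comparison. Their part in the *Tgfbr3* level was not tested.

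*Smad7* (NM_001042660, chromosome 18, 75527019 to 75555588, plus strand) encodes the inhibitory SMAD that TGF-beta itself induces and that blocks the type I receptor. It was among the steadiest of the members. Its FPKM was 5.23, 3.46 and 4.05 in WT baseline and 3.21, 4.25 and 3.43 in WT IR libraries, and 3.40, 4.68 and 4.40 in baseline and 4.94, 4.74 and 4.04 in IR libraries labelled *Tet2*-/-. All 4 groups overlapped and no test passed, with log2 fold changes after IR of −0.29 (SE 0.19, adjusted p = 0.413) in WT and −0.13 (SE 0.16, adjusted p = 0.551) in the libraries labelled *Tet2*-/-. The IR effects differed by 0.21 (SE 0.26, adjusted p = 0.645).

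*Ctgf* (NM_010217, chromosome 10, 24315248 to 24318488, plus strand) encodes a secreted matricellular protein and is a target of both SMAD and YAP/TAZ signalling. Its FPKM was 40.9, 27.1 and 16.6 in WT baseline, 17.5, 26.3 and 17.8 in WT IR and 21.4, 28.2 and 21.2 in the baseline libraries labelled *Tet2*-/-. In the IR libraries labelled *Tet2*-/- it was 126, 102 and 114, far above the 9 other libraries, which overlapped. *Ctgf* rose 4.07-fold with IR in these libraries (log2 fold change 2.02, SE 0.19, adjusted p = 0.000278). It did not pass in WT, where the log2 fold change was −0.52 (SE 0.32, adjusted p = 0.372). After IR it was 5.26-fold higher in the libraries labelled *Tet2*-/- than in WT (log2 fold change 2.39, SE 0.20, adjusted p = 0.00960). The difference of the IR effects was 2.59 on the log2 scale (SE 0.40, adjusted p = 0.00542). Each of these 3 calls was kept under each alternative tried, 15, 15 and 21 in number, with log2 values from 1.93 to 2.28, from 2.28 to 2.56 and from 2.22 to 2.85. At baseline the genotypes differed by −0.16 (SE 0.30, adjusted p = 0.821).

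Podocytes are a known site of *Ctgf* transcription, and their 4 markers moved with it. Their summed FPKM was 5.61 to 12.9 in WT baseline, 6.43 to 8.22 in baseline libraries labelled *Tet2*-/-, 1.58 to 11.9 in WT IR and 21.8 to 42.7 in IR libraries labelled *Tet2*-/-. All 4 rose with IR in the libraries labelled *Tet2*-/-, and none passed between genotypes after IR. Proximal tubule markers went the other way, with sums of 1648 to 2268 FPKM at baseline, 1023 to 1329 in WT IR and 407 to 632 in IR libraries labelled *Tet2*-/-, where 3 of 5 fell. Between genotypes after IR 3 of these 5 were lower, beside 6.17% of all genes. For the interaction term 3 were lower, beside 5.38% of all genes. The injury genes *Havcr1* and *Lcn2* summed to 288 to 1035 FPKM in WT IR and 2340 to 2716 in IR libraries labelled *Tet2*-/-, and neither passed between genotypes after IR. The interaction term was higher for 1 of these 2 genes and for 1 of the 4 podocyte markers, beside 3.81% of all genes. The part of these cell types and injury genes in the *Ctgf* difference was not tested.

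*Acta2* (NM_007392, chromosome 19, 34314826 to 34329863, minus strand) encodes smooth muscle actin, present in vessel walls at baseline and in myofibroblasts after injury. Its coding sequence is close to that of the other actin genes, so reads could be split between them, and its values are uncertain to that extent. The FPKM was 11.3, 20.6 and 6.24 in WT baseline and 26.5, 12.2 and 1.90 in WT IR libraries, the widest spread of the 10 genes relative to its mean in that group. In the libraries labelled *Tet2*-/- it was 13.1, 13.4 and 8.19 at baseline and 14.9, 29.8 and 19.0 after IR, every IR library being above baseline as for 40.4% of all genes. The log2 fold change was 0.61 in the latter (SE 0.26, adjusted p = 0.0941). With the replicate number as a block it was 0.60 (adjusted p = 0.0487), 1 of 4 alternatives among 15 that passed, with a range up to 0.452 and the lowest, 0.0422, without IR replicate 1. In WT it was −0.00 (SE 0.80, adjusted p = 0.999). Neither the genotype difference after IR (0.59, SE 0.74, adjusted p = 0.637) nor that of the IR effects (0.65, SE 0.93, adjusted p = 0.695) passed. WT IR replicate 3, the library with 1.90 FPKM, was also the lowest of the 12 in summed endothelial (5.53 FPKM), fibroblast and pericyte (12.7 FPKM) and podocyte markers (1.58 FPKM). The 6 vascular smooth muscle markers summed to 20.8 to 38.5 FPKM in WT baseline, 22.0 to 29.2 in baseline libraries labelled *Tet2*-/-, 26.4 to 45.0 in WT IR and 49.5 to 59.3 in IR libraries labelled *Tet2*-/-, and 2 of 6 rose in the last. These were *Smtn* and *Actg2*, while *Myh11*, *Cnn1*, *Lmod1* and *Des* did not pass. *Smtn* made up most of the sum in each library, at 43.2, 39.8 and 45.0 FPKM in the IR libraries labelled *Tet2*-/-. The part of these markers in the *Acta2* level was not tested.

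*Fn1* (NM_001276408, chromosome 1, 71632047 to 71699808, minus strand) encodes fibronectin, the scaffold on which other matrix proteins assemble. Its FPKM was 3.33, 5.02 and 1.44 in WT baseline, 3.27, 3.40 and 2.37 in WT IR and 4.44, 6.05 and 4.23 in the baseline libraries labelled *Tet2*-/-. The IR libraries of that label were at 3.22, 11.3 and 1.25, so replicate 2 held the highest and replicate 3 the lowest value of all 12 libraries. With IR the log2 fold change was −0.22 in these (SE 0.63, adjusted p = 0.798) and −0.18 in WT (SE 0.39, adjusted p = 0.823). Leaving out IR replicate 2 made it a fall by 1.33 on the log2 scale (adjusted p = 0.0327), and leaving out IR replicate 3 turned it to 0.21, in a range of 0.0327 to 0.991 for the adjusted p of 15 alternatives. The genotype difference after IR, 0.65 (SE 0.65, adjusted p = 0.543), was −0.48 without IR replicate 2. That library also had the highest sum of the 9 fibroblast and pericyte markers in its group (61.5 FPKM, against 29.3 and 17.7) and of the macrophage markers (204 FPKM, of which *Lyz2* held 120). Their part in its *Fn1* level was not tested.

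**Figure D3:**
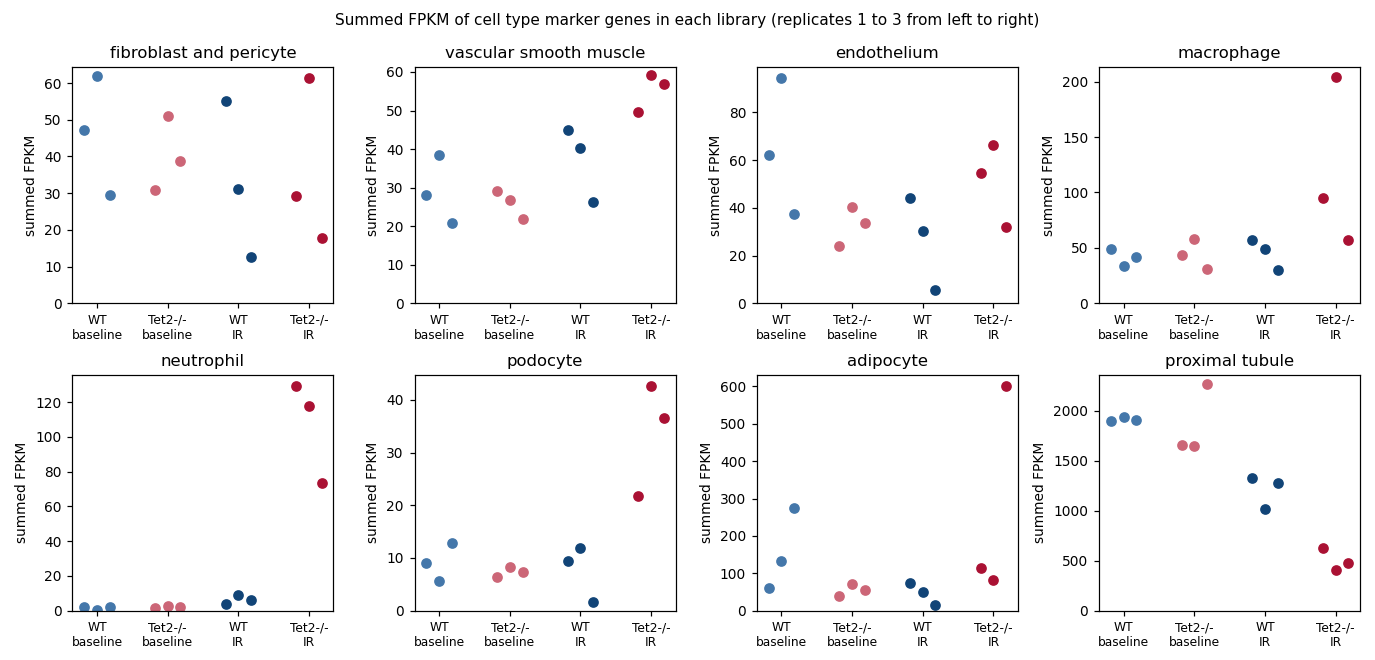
Summed FPKM (vertical axes, each from 0) of the marker genes of 8 cell types in each library of the 4 groups, replicates 1 to 3 from left to right. Neutrophil, podocyte and vascular smooth muscle sums are highest in the 3 IR libraries labelled *Tet2*-/-, proximal tubule sums are lowest there, and the fibroblast and pericyte sums overlap between all groups. Most of each vascular smooth muscle sum is *Smtn*, at 39.8 to 45.0 FPKM in the IR libraries labelled *Tet2*-/-.

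The fibroblast and pericyte markers as a whole did not follow the IR libraries labelled *Tet2*-/-. They summed to 29.5 to 61.8 FPKM in WT baseline, 30.8 to 51.1 in baseline libraries labelled *Tet2*-/-, 12.7 to 55.0 in WT IR and 17.7 to 61.5 in IR libraries labelled *Tet2*-/-, with 0 of 9 higher and 1 lower after IR in the last. Adipocyte markers summed to 59.7, 134 and 274 FPKM in WT baseline, 38.6 to 72.4 in baseline libraries labelled *Tet2*-/- (where *Lep* was listed at 0), 15.05 to 72.8 in WT IR, and 114, 81.4 and 601 in IR libraries labelled *Tet2*-/-. Their part in the members' values was not tested.

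Other genes of the pathway were counted from 7 lists. Among 29 receptors, SMADs and feedback regulators, 13 rose and 1 fell with IR in the libraries labelled *Tet2*-/- (median log2 fold change 0.45, against 0.04 over all genes, of which 22.9% passed as higher and 20.3% as lower). None of them passed in WT (median −0.04), where 3.02% of all genes did. *Tgif1*, a repressor of SMAD-driven transcription, was at 6.74 to 11.9 FPKM in WT IR and 21.7 to 29.6 in IR libraries labelled *Tet2*-/-, a rise of 3.27-fold over baseline (adjusted p = 0.000394). *Smad3*, the DNA-binding effector of the pathway, was at 5.26, 8.91 and 6.41 FPKM in WT IR and 17.7, 16.8 and 13.99 in IR libraries labelled *Tet2*-/-. It rose 3.05-fold over baseline there (adjusted p = 0.000128), and its IR effect differed between genotypes (log2 1.37, SE 0.25, adjusted p = 0.00916). *Acvr2b*, an activin receptor, fell to 0.353 of its baseline level (adjusted p = 0.000596). In the list 5 genes were higher by label after IR and 7 had a higher and 1 a lower interaction term, beside 3.5% of all genes higher after IR and 3.81% higher and 5.38% lower for the interaction. Both *Tgif1* (log2 1.45, adjusted p = 0.0158) and *Smad3* (log2 1.14, adjusted p = 0.0201) were among the 5.

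Of 25 genes that TGF-beta induces, 12 rose and none fell with IR in the libraries labelled *Tet2*-/- (median 0.82), where 22.9% of all genes passed as higher and 20.3% as lower. After IR 7 were higher by label (median 0.89, against 0.04 over all genes, of which 3.5% passed as higher). *Timp1*, an inhibitor of matrix metalloproteinases, rose in both genotypes, 23.3-fold in WT (adjusted p = 0.0155) and 102-fold in the libraries labelled *Tet2*-/- (adjusted p = 0.000459), and these effects did not differ past the threshold (adjusted p = 0.141). *Timp1* was the only gene of this list to pass in WT, where 1.89% of all genes passed as higher and 1.12% as lower. *Hmga2*, a chromatin protein, was low in each group and reached 0.761, 1.79 and 0.954 FPKM in the IR libraries labelled *Tet2*-/-.

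**Figure D4:**
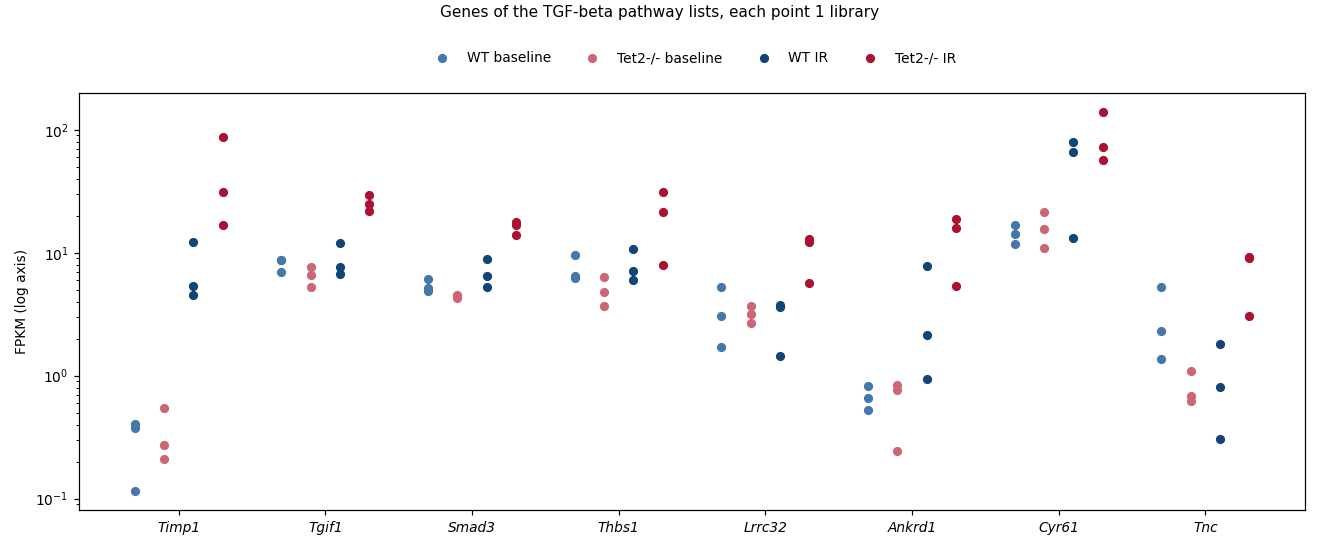
FPKM on a log axis of 8 genes from the pathway lists in each of the 12 libraries, in the order WT baseline, *Tet2*-/- baseline, WT IR and *Tet2*-/- IR within each gene. The 3 IR libraries labelled *Tet2*-/- lie above the other 9 for *Timp1*, *Tgif1* and *Smad3*, while for *Cyr61* WT IR libraries reach 79.5 FPKM, within their range.

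Of 15 genes of the latent complex and its activators, 4 rose and 2 fell with IR in the libraries labelled *Tet2*-/- (median −0.06, against 0.04 over all genes, of which 22.9% passed as higher and 20.3% as lower). *Thbs1*, thrombospondin 1, which can activate latent TGF-beta, was at 6.33, 4.77 and 3.70 FPKM at baseline and 31.3, 21.4 and 7.93 after IR (log2 fold change 1.76, SE 0.44, adjusted p = 0.0145). *Itgb8*, an integrin chain that activates the latent complex, rose by 1.54 on the log2 scale (adjusted p = 0.0434), and its 2.14 to 6.09 FPKM after IR overlapped the 4.89 to 7.43 FPKM of WT IR. The latent binding proteins *Ltbp4* (log2 fold change −1.45, adjusted p = 0.0270) and *Ltbp3* (−0.80, adjusted p = 0.0241) fell. *Lrrc32*, which encodes the membrane anchor GARP for latent TGF-beta, was the 1 gene of the list higher by label after IR, at 12.9, 12.3 and 5.64 FPKM against 3.65, 3.73 and 1.46 (log2 fold change 1.72, SE 0.39, adjusted p = 0.0394). Of all genes tested there, 3.5% passed as higher and 6.17% as lower.

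Of 21 activin, BMP and GDF ligands and antagonists, 9 rose and 2 fell with IR in the libraries labelled *Tet2*-/- (median 0.59, against 0.04 over all genes), where 22.9% of all genes passed as higher and 20.3% as lower. *Gdf15*, a stress-induced member of the family, rose 11.0-fold (adjusted p = 0.000614) to 211, 92.8 and 144 FPKM. *Inhbb*, an activin chain, was at 2.81, 2.09 and 0.736 FPKM in IR libraries labelled *Tet2*-/- and 0.235, 0.611 and 0.21 in WT IR, a log2 difference of 2.32 (SE 0.58, adjusted p = 0.0498). *Grem1*, a BMP antagonist, rose in the libraries labelled *Tet2*-/- (log2 fold change 2.66, adjusted p = 0.0457) to 0.524 to 3.60 FPKM, while WT IR libraries held 0.734 to 9.39. *Gdf10* (−1.38, adjusted p = 0.0419) and the BMP antagonist *Chrd* (−0.62, adjusted p = 0.0272) fell. The interaction term passed for 2 genes of this list, beside 3.81% of all genes as higher and 5.38% as lower, and *Twsg1*, a BMP-binding protein, had a log2 value of 0.95 (SE 0.22, adjusted p = 0.0250).

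Of 24 matrix and fibroblast genes, 8 rose and 1 fell with IR in the libraries labelled *Tet2*-/- (median 0.27), where 22.9% of all genes passed as higher and 20.3% as lower. The fibrillar collagens *Col1a1* (log2 fold change 0.07, SE 0.72, adjusted p = 0.950) and *Col3a1* (0.37, SE 0.73, adjusted p = 0.705), chosen for mention after their values were seen, did not pass. *Spp1*, osteopontin, rose 13.3-fold in WT (adjusted p = 0.0391) and 51.2-fold in the libraries labelled *Tet2*-/- (adjusted p = 0.000250), and is also made by injured tubules. *Tnc*, tenascin C, was at 0.803, 1.80 and 0.308 FPKM in WT IR and 9.15, 9.14 and 3.04 in IR libraries labelled *Tet2*-/- (log2 fold change 2.80, SE 0.64, adjusted p = 0.0399). *Lox*, the collagen cross-linking enzyme, was at 0.586, 0.612 and 0.22 FPKM against 1.93, 2.10 and 1.82 (log2 fold change 1.97, SE 0.35, adjusted p = 0.0216). *Col6a1* fell by 1.19 with IR in the libraries labelled *Tet2*-/- (adjusted p = 0.0354). For *Vcan*, versican, the interaction term was 6.32 (SE 1.21, adjusted p = 0.0116), and its highest library was WT baseline replicate 2, at 3.56 FPKM, against 0.197 to 0.875 in the IR libraries labelled *Tet2*-/-.

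Of 16 genes of YAP/TAZ signalling, its targets together with the coactivators and their TEAD partners, 9 rose and none fell with IR in the libraries labelled *Tet2*-/- (median 0.78, against 0.04 over all genes), where 22.9% of all genes passed as higher and 20.3% as lower. None passed by label after IR, where 3.5% of all genes passed as higher and 6.17% as lower. *Ankrd1* rose 17.99-fold (adjusted p = 0.00140), to 18.9, 15.9 and 5.40 FPKM, and *Cyr61*, which encodes the matricellular relative of CTGF, rose 4.72-fold (adjusted p = 0.00284), to 139, 72.9 and 57.2 FPKM. In WT IR libraries *Cyr61* was at 13.3, 79.5 and 66.0 FPKM, and its genotype difference of 0.65 on the log2 scale did not pass (SE 0.63, adjusted p = 0.538). *Nuak2*, a kinase, was the gene of this list that passed in WT (log2 fold change 1.51, adjusted p = 0.0331), where 1.89% of all genes passed as higher and 1.12% as lower. The interaction term passed for 2 genes, as for 9.19% of all genes, among them the transcriptional coactivator *Yap1* (log2 0.77, SE 0.19, adjusted p = 0.0315).

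Smooth muscle contractile and actin genes rose with IR in 10 of 17 cases in the libraries labelled *Tet2*-/- and none fell (median 0.88, against 0.04 over all genes), where 22.9% of all genes passed as higher and 20.3% as lower. *Flna*, the actin cross-linker filamin A, rose 3.07-fold (adjusted p = 0.00182). *Actg2*, enteric smooth muscle actin, rose by 3.34 on the log2 scale (adjusted p = 0.0357) from 0.049 to 0.145 FPKM to 0.131 to 2.87, ranges that overlapped. *Smtn*, a smooth muscle actin-binding protein, was at 24.5, 30.2 and 24.1 FPKM in WT IR and 43.2, 39.8 and 45.0 in IR libraries labelled *Tet2*-/-, and was the 1 gene of the list that was higher by label after IR (log2 fold change 0.61, SE 0.15, adjusted p = 0.0466). In that comparison 3.5% of all genes passed as higher and 6.17% as lower. *Vcl*, vinculin, passed for the interaction term (log2 0.91, SE 0.25, adjusted p = 0.0466). In the 7 lists no gene passed between genotypes at baseline.

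Genes whose log2(FPKM + 0.1) followed each member most closely over the 12 libraries were named from the 12213 genes whose mean FPKM was no lower than 1. The libraries share group, depth and RNA composition, so these are descriptions. For *Tgfbr1* they were *Zmynd19*, *Calu* and *Whsc1* (Pearson's r of 0.988, 0.987 and 0.986) and for *Tgfbr2* *Ss18*, *Sept10* and *Sdcbp* (0.981, 0.976 and 0.976). *Tgfb1* was followed by *Ssbp4*, *Armcx2* and *Tgfbi*, the last a TGF-beta-induced matrix protein (0.965, 0.964 and 0.961), and *Ctgf* by *Map3k6*, *Zkscan6* and *Pigm* (0.959, 0.957 and 0.957). *Tgfb3* had *Mical1*, *Nos3*, the endothelial nitric oxide synthase, and *Tagln*, a smooth muscle protein (0.968, 0.961 and 0.961). *Acta2* had *Jag2*, *Mir143hg*, the host of a smooth muscle microRNA, and *Pcp4l1* (0.926, 0.921 and 0.919), and *Fn1* had *Col15a1*, *Lat2* and *Fam189b* (0.951, 0.908 and 0.907). *Tgfbr3* was followed by *Tbx3*, *Ephx1* and *Efnb2* (0.948, 0.920 and 0.907), *Tgfb2* by *Cald1*, *Apobec3* and *Rbms3* (0.898, 0.897 and 0.897) and *Smad7* by *Bhlhe40*, *D1Ertd622e* and *Angptl2* (0.877, 0.779 and 0.716). Among the members themselves the highest r was that of *Tgfbr1* with *Tgfbr2* (0.931), and that of *Ctgf* with *Fn1* was 0.102.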

How the data were processed

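Reads of 12 kidney libraries were aligned by the authors to mm9 with STAR and counted on RefSeq transcripts with HOMER. Versions and strand setting are not given in the sources used here. The deposited expected counts rise in steps of 0.5 (38.7% not whole) and are not normalized, and the deposited FPKM are scaled by transcript length and library depth. The design assumed whole counts, so values ending in 0.5 were rounded up. The transcript with the highest total represented each symbol. Levels are FPKM.

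Counts were tested in R 4.3.3 with edgeR 4.0.16 (TMM, its default filter on low counts, quasi-likelihood F test, Benjamini-Hochberg adjustment over all genes tested), each comparison on its own 6 libraries and the interaction on 12. The scripts were tested on simulated data. Replicates are separate mice per the study's methods, and 3 against 3 allow an exact permutation p of 0.1 at the lowest. The members, lists and tests were chosen with earlier results of these data known. Named were the members, *Tet2*, the 2 genes per list, comparison and direction with the largest change among those passed whose mean FPKM reached 1 in a group compared, and the 3 most correlated genes per member. A result that this rule names is not reported here.

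Same-numbered libraries of a genotype correlated in their deviations from the mean of the group (0.348, 0.349 and 0.345 for the WT pairs, 0.120, 0.350 and 0.204 for the pairs labelled *Tet2*-/-), although the study's methods describe different mice, so the pairing comes from the data only. Alternatives were DESeq2 1.42.0, library sizes alone, upper quartile scaling, other filters, all 12 libraries in a fit, limma 3.58.1 on log2(FPKM + 1) and log2(FPKM + 0.1), a replicate block, adjusted p alone, and each library left out. No other symbol's transcript overlapped a member. Figures were drawn with matplotlib 3.10.9.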

Additional observations from a re-analysis of the deposited data

Results flagged for a closer look

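Among the 10 members and *Tet2*, the IR effect differed between the genotypes by the interaction term over the 12 libraries for 3 genes, as it did for 9.19% of all 16755 genes tested. *Ctgf* had a term of 2.59 on the log2 scale (SE 0.40, edgeR adjusted p = 0.00542) and passed under each of 21 alternatives, with each IR library labelled *Tet2*-/- above the 9 other libraries. *Tgfbr2* had a term of 1.21 (SE 0.30, adjusted p = 0.0316), with each IR library labelled *Tet2*-/- above every other library, and missed the threshold on leaving out any of 8 of the 12 libraries (adjusted p from 0.0534 to 0.0717). *Tet2* itself had a term of −2.001 (SE 0.48, adjusted p = 0.0285), which was missed without WT baseline replicate 2 or 3, or baseline replicate 2 or IR replicate 1 labelled *Tet2*-/- (adjusted p from 0.0522 to 0.0579), and with limma on log2(FPKM + 1) and log2(FPKM + 0.1) (0.0613 and 0.0517). It was at 12.1 FPKM in the baseline libraries labelled *Tet2*-/- and 2.53 FPKM in their IR libraries, a fall by 2.52 on the log2 scale (SE 0.27, adjusted p = 0.000513), against 7.58 and 5.72 FPKM in WT (log2 fold change −0.48, SE 0.34, adjusted p = 0.440, and −0.99, adjusted p = 0.0498, without WT IR replicate 1). Among the genes named from the pathway lists, the term also passed for *Tgif1* (1.71 on the log2 scale), *Smad3* (1.37), *Tnc* (4.61), *Vcan* (6.32), *Twsg1* (0.95), *Yap1* (0.77), *Hmga2* (3.54), *Lox* (2.59), *Acvr2b* (−0.96) and *Vcl* (0.91).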

How the results depend on the processing

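Over the alternatives, 734 values of the 10 members kept their direction and side of the threshold, 28 newly passed, 13 no longer passed and 45 changed sign. The causes were not tested. Library sizes alone moved the median log2 fold change of all genes from 0.04 to 0.27 for IR in the libraries labelled *Tet2*-/- and from 0.10 to 0.24 for the interaction, and *Tgfb1*, *Tgfbr1*, *Tgfbr2* and *Ctgf* still passed for that IR effect. For IR in WT, 377 differentially expressed genes became 973 with DESeq2, 639 with all 12 libraries in a fit, 235 with limma on log2(FPKM + 1), 988 with the replicate block, 1 without WT baseline replicates 2 and 3, and 88 to 559 with a library left out (88 without WT baseline replicate 3), and 0 members became 1 with DESeq2 and 1 with the replicate block. For IR in the libraries labelled *Tet2*-/-, 3984 genes became 2256 with limma on log2(FPKM + 1) and 7068 with adjusted p alone. At baseline 2 genes became 320 with DESeq2, 4 with the replicate block and 2 to 9 with a library left out. After IR 998 genes became 1655 with DESeq2, 1601 with all 12 libraries, 595 with limma on log2(FPKM + 1), 1568 with adjusted p alone and 306 to 941 with a library left out (306 without WT IR replicate 1), and 1 member became 3 with DESeq2, 2 with all 12 libraries and 2 with the replicate block. For the interaction 1539 genes became 2805 with DESeq2 and 701 to 2062 with a library left out (701 without baseline replicate 3 labelled *Tet2*-/-), and 2 members became 4 with the replicate block, 4 with the block within genotype (chosen after seeing the data) and 1 to 4 with a library left out. Beyond the calls given for *Tgfb1*, *Tgfbr1*, *Tgfbr3* and *Acta2*, a block within the IR comparisons or the interaction changed no call on a member. Between genotypes the numbers did not pair the libraries, with correlations of −0.175, −0.150 and 0.053 at baseline and −0.001, 0.206 and 0.302 after IR, and not every library correlated best with its own number.

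The sign changes concerned values that had not passed. For IR in WT, *Acta2* (−0.00) was 0.0025 with DESeq2, 0.062 with library sizes alone, 0.16 without WT baseline replicates 2 and 3 and −0.93 to 0.54 with a library left out, *Fn1* (−0.18) was 0.035 with limma on log2(FPKM + 0.1) and −0.53 to 0.27 with a library left out, and *Tgfb1* (−0.17) was −0.39 to 0.033. For IR in the libraries labelled *Tet2*-/-, *Tgfbr3* (−0.25) was 0.022 and 0.035 with limma, *Smad7* (−0.13) was 0.11 with library sizes alone and 0.12 and 0.14 with limma, and *Fn1* (−0.22) was 0.062 with library sizes alone and −1.33 to 0.21 with a library left out. At baseline *Smad7* (0.06) was −0.0094 with library sizes alone, −0.019 and −0.022 with limma, −0.23 without WT baseline replicates 2 and 3 and −0.062 to 0.23 with a library left out. *Acta2* (−0.04) was 0.089 with the replicate block, 0.13 without WT baseline replicates 2 and 3 and −0.37 to 0.49 with a library left out, and *Tgfb1* (−0.02) was 0.018 with the replicate block and −0.25 to 0.18. *Ctgf* was −0.43 to 0.20 and *Tgfb3* −0.18 to 0.47 with a library left out. After IR *Tgfbr3* was −0.094 to 0.64 and *Fn1* −0.48 to 1.09 with a library left out. The interaction term of *Fn1* (−0.02) was 0.20 with library sizes alone, 0.016 with upper quartile scaling, 0.0013 with a filter at a mean FPKM of 1 and −1.19 to 0.43 with a library left out.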
